A study of Drosophila melanogaster with 3 samples.

Results

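The promoters of 42 genes that encode Polycomb group proteins, trithorax group proteins and ATP-dependent chromatin remodelers of Drosophila melanogaster were examined for binding of CG15514. They are a list of FlyBase symbols, fixed by gene function with no threshold on a measured value but drawn up with earlier results of these data known. Of the 42 names, 41 matched a gene by symbol and 1 (calypso) through a synonym, among 13945 annotated protein-coding genes on 6 chromosome arms. The binding data are ChIP-seq peak lists from 3 biological replicates of 1 group: mixed-sex whole embryos of 0 to 24 h from a transgenic line that stably expresses CG15514 fused to a C-terminal GFP (eGFP), immunoprecipitated with an antibody against GFP after sonication to 200 to 800 bp. All 3 replicates carry the fusion and share 1 control alignment, and there is no second genotype, stage or treatment to compare. The embryos were not sorted, so binding in few cells and weak binding in many cannot be told apart.

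Polycomb repressive complex 2 (PRC2) places a repressive methyl mark on histone H3, and Polycomb repressive complex 1 (PRC1) reads that mark and ubiquitinates histone H2A, so that developmental genes such as the Hox genes stay silent where they were set silent. The trithorax group acts in the opposite direction: its COMPASS methyltransferases mark active genes, and its SWI/SNF remodelers open chromatin. The ISWI, INO80, SWR1 and CHD enzymes move, space or exchange nucleosomes, and most of these proteins are broadly present in the embryo.

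A promoter peak was a summit of the thresholded list, the peaks that the authors kept after comparing replicates, within 500 bp of any annotated transcription start site (TSS) of the gene. The DNA at the summit, or at a motif match within 100 bp of it, is printed for a few members. It is given on the strand of the gene, 5′ to 3′, on dm6. The matches lay 22 bp from the summit at Ino80, 40 bp at Sfmbt and 87 bp at trr. At trx they lay 31 and 45 bp away, and at Mi-2 3 and 33 bp. The first 3 sequences are from the members of highest promoter signal whose window lies in no untranslated region. The gene polybromo was added after its values were seen because the motif lies on its summit. Capitals mark TATCG, the reverse complement of CGATA (the sequence read by the insulator protein BEAF-32), or, where that was not found within 100 bp, the summit base. The windows are chr3R:19403422-19403451 for Ino80, chrX:2137306-2137335 for ph-p, chr3L:15982994-15983023 for brm and chr3R:24805274-24805303 for polybromo, all on the minus strand.
Ino80: aaacatcgataacTATCGacgtctcacgac
ph-p: ggatacgactgaagtTagcgaggaatggta
brm: atcattaattaaattTaaataaataccatt
polybromo: atcgaccgcgcacTATCGaacctttcgccc
A second CGATA in the Ino80 window is left in lower case. The next 3 show in capitals TATCGATA, the DNA replication-related element (DRE), which the transcription factor DREF reads in many housekeeping promoters. They lie at chr3R:9637620-9637649, chr2L:13176869-13176898 and chrX:1890213-1890242, all on the minus strand, and were chosen after the matches were seen.
Scm: aggtaagcaacTATCGATAtgcgcaaagat
Sfmbt: tattgtacactTATCGATAacaatcactct
trr: ctaaaaacataTATCGATAgaccaccgatt
The last 5 show GGTCACAC, the Ohler 1 core, which the zinc finger protein M1BP reads, or GAACTAG, or their reverse complements, in capitals, and were also chosen after the matches were seen. They lie at chr3R:14286937-14286966 and chr3R:14287013-14287042 for trx, chr3L:19598778-19598807 for ash1, and chr3L:19910264-19910293 and chr3L:19910228-19910257 for Mi-2, all on the minus strand.
trx, Ohler 1: ctaaaatatcgGTGTGACCaggtctgcaca
trx, GAACTAG: gcttttgtctttGAACTAGcagagacacat
ash1, Ohler 1: ttccgccgcaaGGTCACACtgtcgcgtaga
Mi-2, Ohler 1: tcatgtcgccaGTGTGACCgtttcgctttc
Mi-2, GAACTAG: cggggtgcaaccCTAGTTCtctcacttttt

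CG15514 peaks lay at the promoters of 35 of the 42 genes (83.3%), against 5985 of all 13945 protein-coding genes (42.9%). The members without one were Sce, Pcl, pho, Asx, calypso, Set1 and osa. When each replicate list was taken to its strongest 8708 entries, the length of the thresholded list, 35, 34 and 35 members had a promoter entry in replicates 1, 2 and 3 (34.7 ± 0.577 genes, or 82.5% ± 1.37, SD, n = 3), while all protein-coding genes had 43.6%, 42.7% and 42.5%. The members' share stood above that of all genes in each of the 3 lists. The replicate totals differed by 1, but the genes behind them differed by more. Against the thresholded list, replicate 1 lacked Bap111 and escl and added osa and pho. Replicate 2 lacked Bap111 and ash1 and added Asx, and replicate 3 lacked Utx and escl and added Pcl and osa. A second list of 62 other chromatin genes gave 52 with a promoter peak (83.9%), and 53, 48 and 52 in the replicates. Both lists of chromatin genes thus stood at nearly the same share, and no difference between them was tested.

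A peak was called supported in a replicate where a summit lay within 100 bp among that replicate's strongest 8708 entries. Counting only peaks supported in all 3 replicates left 29 members (69%) against 34.5% of all genes. Among the genes with a promoter peak, the strongest peak had this support in 29 of 35 members (82.9%) and in 79.3% of all such genes. With the stronger 50% of thresholded peaks, 27 members (64.3%) kept a promoter peak, against 29.2% of all genes.

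Many members have another gene's TSS within 1000 bp of their own, in whatever orientation, and a summit within 500 bp of the start sites of 2 genes was counted for both. When each summit was given only to the gene of the nearest TSS, 27 members (64.3%) had one, against 33.4% of all genes, and the 8 that lost theirs were Acf, Bap60, Ino80, Jarid2, Mi-2, Su(z)12, brm and trr. Of the 14 members with no TSS of another gene within 1000 bp of their own, 10 had a promoter peak (71.4%, against 27.2% of 7219 such genes). With such a neighbour the count was 25 of 28 (89.3%, against 59.8% of 6726 genes). The number of start sites moved the background in the same way: 21 of 26 members with 1 TSS position had a peak (80.8%, against 36.4%), and 14 of 16 members with more (87.5%, against 61%). The share of members was above the share of all genes in each of these classes.

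**Figure D1:**
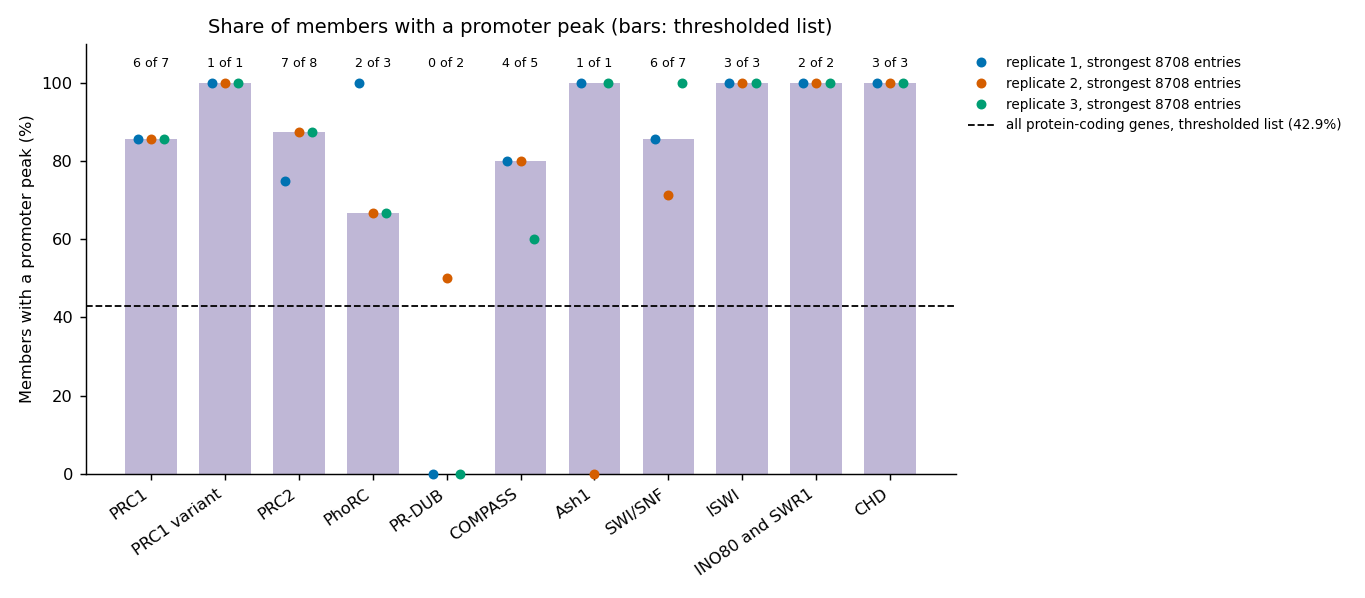
Share of the members of each complex with a promoter peak in percent; bars are the thresholded list, points the strongest 8708 entries of each of 3 replicates, and the dashed line all protein-coding genes at 42.9%. Every complex but the 2 genes of PR-DUB stands above the line in the thresholded list, and the numbers above the bars give the genes behind each share.

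The height of the peaks was ordinary. Heights are the signal value that the authors' peak caller gave each peak against the control, which has no stated scale and was compared within 1 list only; rank 1 is the highest. The median signal of the members' strongest promoter peaks was 328.7 (quartiles 248.4 to 408.9), against 314.6 (208.5 to 529.1) for all genes with a promoter peak. The median rank was 2785 of 8708 for the members and 2955 for all genes. Ranked within the replicates, the members' medians were 2335, 3183 and 3033 (2850 ± 452.5, SD, n = 3) and those of all genes 2769, 2937 and 3036, so the 2 sets differed by less than the spread between replicates. No member reached the strongest 200 peaks, where 276 genes of the genome had their promoter peak and the highest stood at a signal of 70620. Of the 35 members with a promoter peak, the first 1000 ranks held 6, the ranks from there to 4000 held 19, and the rest held 10. The same counts for the 5985 genes with a promoter peak were 1125, 2696 and 2164. Over all 42 members and all genes the first 1000 ranks held 14.3% and 8.07%, shares that also carry the difference in how many genes had a peak.

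**Figure D2:**
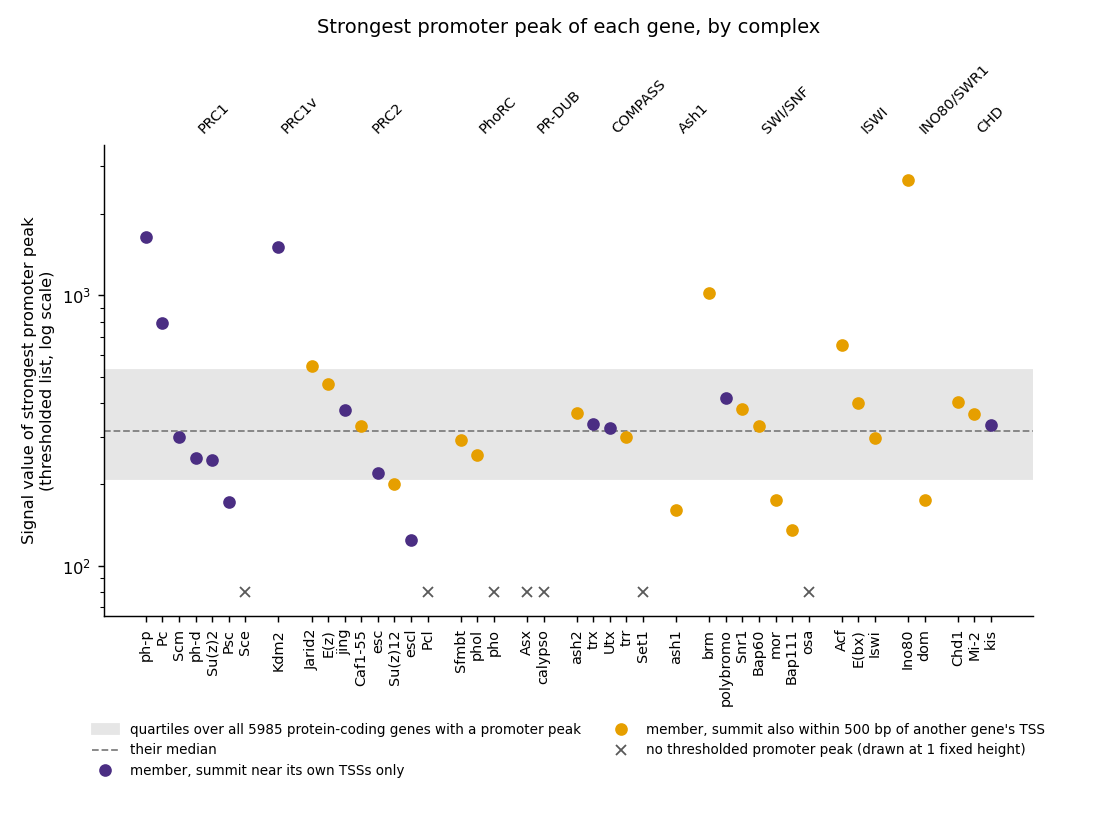
Signal value (log scale) of the strongest promoter peak of each member in the thresholded list, by complex; the grey band spans the quartiles (208.5 to 529.1) and the dashed line the median (314.6) of all 5985 protein-coding genes with a promoter peak. Orange points mark summits also within 500 bp of another gene's TSS and crosses the 7 members without a promoter peak; PRC1 has no orange point, while 12 of the 14 remodeler points are orange.

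In PRC1, 6 of 7 genes had a promoter peak, with a median signal of 274.6, and the replicates gave 6, 6 and 6. All 6 peaks were supported in the 3 replicates, and none lay within 500 bp of another gene's TSS. The highest was at ph-p (FBgn0004861, chrX:2126210-2138371), which encodes Polyhomeotic, a subunit whose SAM domain forms polymers. Its summit at chrX:2137320 had a signal of 1652 and ranks of 341, 382 and 340 in replicates 1, 2 and 3. It lay in an intron, 465 bp upstream of an internal TSS and 1051 bp downstream of the outermost one, and a second summit in the 5' UTR, 413 bp downstream of the outermost TSS, had a signal of 1254 and ranks of 497, 485 and 416. The tandem copy ph-d had 250.1, with ranks of 5429, 4519 and 3464, far below ph-p in each replicate. How reads from such similar copies were placed is not given in the sources used here, so the share of each is uncertain.

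Pc (FBgn0003042, chr3L:21306138-21318020), the chromodomain protein that reads the PRC2 mark, had a summit 70 bp upstream of its TSS with a signal of 793. Its ranks were 581, 835 and 848. Scm, a SAM-domain protein that links PRC1 to other Polycomb complexes, followed with 299 and ranks of 2274, 3647 and 3626; its summit lay 45 bp upstream of the TSS, 22 bp from the printed DRE. Psc and Su(z)2 are neighbouring genes that encode alternative partners of the ubiquitin ligase. Psc had 171.3 (ranks 7784, 7456 and 5533) and Su(z)2 had 246.7 (7384, 3907 and 3702), with 3 promoter summits in all at Su(z)2. Sce, the ligase itself, had no thresholded promoter peak. A weak entry of the pooled list, which ranks all 3 replicates together, lay at its TSS (rank 12960, signal 77.35), with entries at ranks 10326 and 13045 in replicates 2 and 3 and none in replicate 1.

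Kdm2, a histone demethylase of a PRC1 variant, carried 3 promoter summits. The strongest, at chr3R:9052139, had a signal of 1510 and ranks of 343, 370 and 445, and the second had 1223 with ranks of 436, 534 and 501. The ranges of ph-p and Kdm2 overlapped across replicates, so their order is not settled by these lists. The strongest summit of Kdm2 lay 356 bp upstream of its TSS in the 3' UTR of the adjacent gene.

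In PRC2, 7 of 8 genes had a promoter peak, with a median signal of 328.7 and 6, 7 and 7 genes in the replicates. Jarid2, an accessory subunit, was highest at 549.9, with ranks of 1430, 1076 and 1460. Its summit lay 49 bp upstream of its TSS but only 24 bp from that of Uch-L5. E(z), the methyltransferase, had 470.6 and ranks of 1910, 1548 and 1576; the summit lay in its 5' UTR, 42 bp downstream of the TSS and 58 bp from the TSS of Cnep1r2. The 2 ranges did not overlap, with Jarid2 the higher in each replicate. The accessory zinc finger gene jing followed at 375.3 (ranks 2542, 3471 and 2218). The summit lay 37 bp upstream of an internal TSS and 111725 bp downstream of the outermost TSS. A weaker summit of 181.4 was found at the outermost TSS.

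The histone-binding subunit Caf1-55 had 328.7, the WD40 protein esc 220.2 and the core subunit Su(z)12 had 200. The paralog of esc, escl, was the weakest of all members with a promoter peak, at a signal of 124.1. Its ranks of 8779, 14458 and 9553 all lay outside the strongest 8708 entries, so no replicate supported it. Pcl, which helps PRC2 onto chromatin, had no thresholded promoter peak, although the pooled list had an entry at rank 10301 and replicate 3 one at rank 8551, against 13693 and 14007 in the other two.

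PhoRC brings Polycomb complexes to DNA. Of its 3 genes, Sfmbt (291.4) and phol (255.7) had promoter peaks and pho did not. The ranks of Sfmbt were 5456, 2213 and 3281, among the widest spreads of the set, and those of phol 3106, 4541 and 3779. Both summits also lay within 500 bp of other genes' start sites. The DNA-binding protein gene pho lies on chromosome 4, where 12 of 80 protein-coding genes (15%) had a promoter peak. Its nearest thresholded summit was 17219 bp away, the pooled list had no entry at its TSS, and replicate 1 alone had one, at rank 6816 and 112 bp from the TSS.

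Neither gene of PR-DUB, the enzyme that removes ubiquitin from histone H2A, had a thresholded promoter peak. At Asx, the regulatory subunit, the nearest thresholded summit was 13237 bp away. Replicate 2 had an entry there at rank 3786, 45 bp from a TSS, and neither replicate 1, replicate 3 nor the pooled list had any. At calypso, the catalytic subunit, a summit with a signal of 282.6 lay 578 bp from the TSS, just beyond the 500 bp limit, and weaker entries at the TSS ranked 9731, 20485 and 11537.

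Of the 5 COMPASS genes, 4 had a promoter peak, with signals in the narrow range from 300.1 to 366.5. The highest was ash2, the subunit common to these complexes, at 366.5 with ranks of 1930, 2515 and 2650 and a summit 23 bp upstream of its TSS, 59 bp from that of puf. The founding member trx, a histone H3 methyltransferase, had 333.4 and ranks of 1495, 2554 and 3770, with the summit 79 bp upstream of its TSS at chr3R:14286982. Utx, a demethylase that removes the PRC2 mark, had 323.4, and trr, the enzyme partnered by Utx, had 300.1. The ranks of trr were 2527, 2615 and 4271, below ash2 and trx in each replicate although the ranges overlapped, and the order of ash2 and trx differed between replicates.

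Utx was ranked 2567 and 3183 in replicates 1 and 2 and had no entry in replicate 3, where the nearest entry of any rank was 19677 bp away. Of the 3000 strongest thresholded peaks, 0, 5 and 1 had no entry within 500 bp in replicates 1, 2 and 3, and the peak of Utx was the 1 of replicate 3. Its place in the count thus rests on replicates 1 and 2, and why replicate 3 lists nothing there was not tested.

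Set1, the methyltransferase of the main COMPASS complex, had no entry in any list within 500 bp of its 4 start sites, and the nearest thresholded summit was 11376 bp away. It lies at chr3L:25107594-25115180, near the centromeric end of the arm. Within 1000000 bp of it, 1 of 11 protein-coding genes (9.09%) had a promoter peak, and that stretch held 1 thresholded summit and 5 pooled entries. Both pho and Set1 thus lay in stretches where few promoters had peaks.

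The methyltransferase gene ash1 had a weak peak of 160, 72 bp upstream of its TSS and 35 bp from the printed Ohler 1 match. It ranked 5270, 9041 and 7083, so replicate 2 did not support it and the call needs replicates 1 and 3.

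Among the remodelers, 14 of 15 genes had a promoter peak (93.3%), against 16 of 21 Polycomb genes (76.2%) and 5 of 6 genes of COMPASS with ash1 (83.3%). Their median ranks were 2316, 3248 and 2844. The summit was shared with another gene's promoter in 12 of the 14 remodeler genes, in 6 of the 16 Polycomb genes and in 3 of the 5. Over all protein-coding genes 42.9% had a promoter peak, and 55.1% of those shared its summit. The order of the peak shares did not recur in the second list. There, 10 of 10 PRC1 partners and factors of Polycomb response elements had a peak. Its remodeler groups had 6 of 6 (SWI/SNF), 3 of 4 (ISWI), 12 of 15 (INO80, SWR1 and Tip60) and 4 of 6 (NuRD and CHD). No test was made between the sets of either list, which were small.

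In SWI/SNF, 6 of 7 genes had a promoter peak, with 6, 5 and 7 in the replicates and a median signal of 354.8. The ATPase gene brm was highest at 1017, with ranks of 576, 521 and 590. The summit at chr3L:15983008 lay 139 bp upstream of its TSS and 127 bp from that of Arl1, and TATAAA was within 50 bp of it, outside the printed window. For polybromo, a bromodomain subunit of the PBAP form, the signal was 416 with ranks of 2107, 2308 and 1911, and the summit lay 29 bp upstream of the only TSS nearby, within the printed TATCG. Snr1, a core subunit, had 380.8 and ranks of 2242, 2672 and 2271, below polybromo in each replicate although the 2 ranges overlapped. Bap60 (328.7), the scaffold gene mor (174.5) and Bap111 (135.2) were lower. Bap111 ranked 16871, 8791 and 6785, with support in replicate 3 alone.

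The remaining SWI/SNF gene, osa, defines the BAP form of the complex. Its promoter entry in the pooled list ranked 8714 with a signal of 118.8, next to the last thresholded peak at rank 8708 and 118.9. It stood within the strongest 8708 entries of replicates 1 and 3, at 7924 and 7656, and outside them in replicate 2, at 10759.

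All 3 ISWI genes had promoter peaks. Acf, a subunit that directs nucleosome spacing, had 655.9 with ranks of 787, 882 and 1164; the summit lay 112 bp upstream of its TSS and 38 bp from that of Mccc1. E(bx), the large NURF subunit, had 399.2 with ranks of 1489, 3585 and 1944, and the ATPase gene Iswi had 297.9 with 4616, 3901 and 2785. Acf ranked above E(bx) and E(bx) above Iswi in each replicate, although the ranges of the latter pair overlapped.

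The highest member was Ino80 (FBgn0289122, chr3R:19368995-19403153), the ATPase of the INO80 complex. Its summit at chr3R:19403414 had a signal of 2677 and ranks of 262, 287 and 263, ahead of every other member in each replicate. It lay 261 bp upstream of the Ino80 TSS and 41 bp from that of Aptx, so the nearest start site was not its own, and a window of 250 bp around the TSS missed it. The other gene of this class, dom, the ATPase of SWR1 and Tip60 complexes, had a weak peak of 175.4. It ranked 4271 and 5674 in replicates 1 and 3, and the closest entry of replicate 2 was 150 bp from the summit, at rank 6286, so support is lost without replicate 1 or without replicate 3.

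The 3 CHD genes had similar signals. Chd1, a nucleosome-spacing enzyme, had 401.9; Mi-2, the ATPase of NuRD, had 364.7; and kis, a trithorax group remodeler, had 330.8. The ranks of Mi-2 (1905, 3370 and 2666) and kis (1960, 2925 and 3668) overlapped. Chd1 ranked 1953 and 2166 in replicates 1 and 3, and in replicate 2 the closest entry was 119 bp away at rank 1800, just beyond the 100 bp that counted as support.

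**Figure D3:**
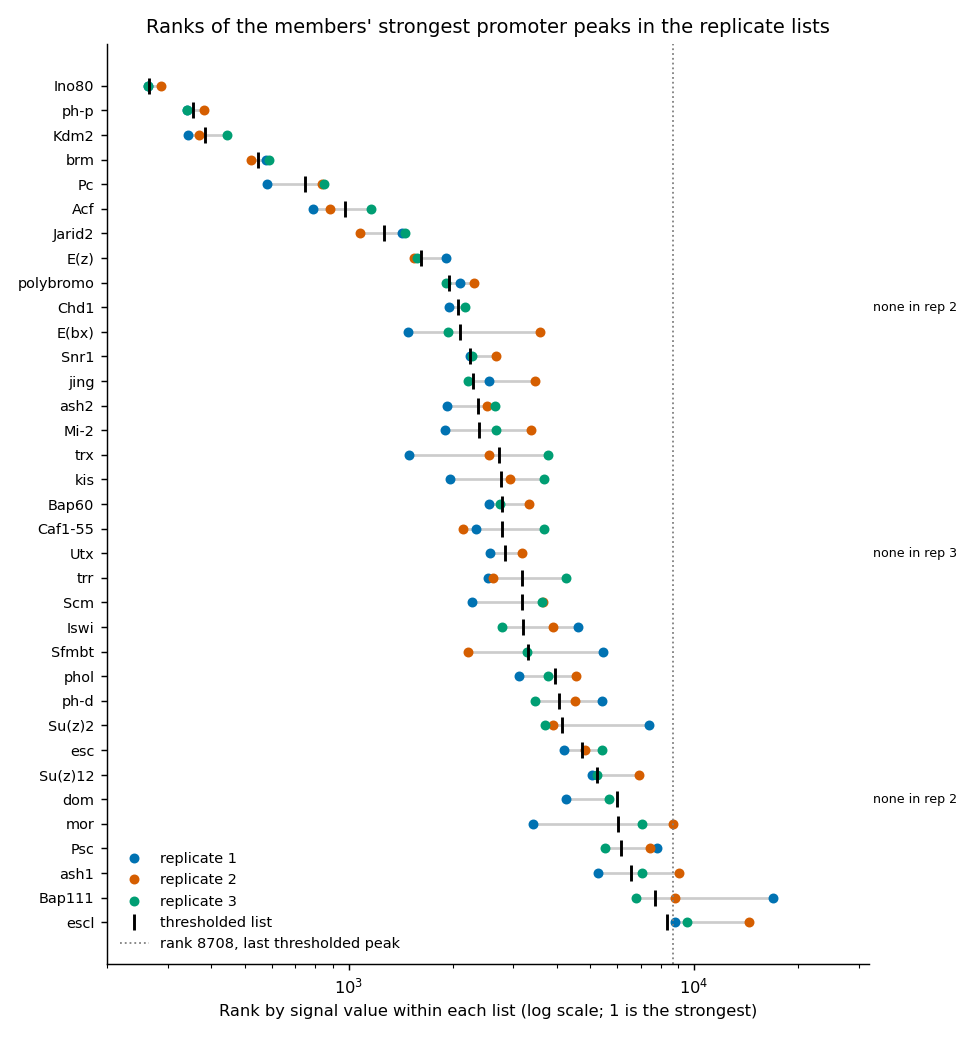
Rank (log scale, 1 is the strongest) of each member's strongest promoter peak in the 3 replicate lists (points) and in the thresholded list (bars), ordered by the latter; the dotted line is rank 8708. Ino80 lies between 262 and 287 and escl between 8779 and 14458, and Chd1, Utx and dom lack an entry within 100 bp in 1 replicate each.

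Among members with an entry in every replicate, the replicate ranks lay closest together at the highest peaks. The thresholded ranks come from the same 3 replicates, and no such ratio was taken over all genes. For the 6 members of rank 1000 or better, the largest replicate rank was 1.21 times the smallest in the median (range 1.1 to 1.48). For the 17 members from there to rank 4000 with an entry in every replicate it was 1.6 times (1.19 to 2.52), and for the 9 weaker ones 1.65 times (1.29 to 2.54).

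The members' summits lay close upstream of the TSS. Of the 35 strongest promoter summits, 32 were upstream (91.4%, against 86.2% for all genes with a promoter peak) and 32 within 200 bp (91.4%, against 79%). The median distance was 74 bp for the members and 83 bp for all genes. The 3 beyond 200 bp were Ino80, Kdm2 and ph-p, which were also the 3 highest. Distance by height was not taken over all genes, so this has no comparison, and 3 genes are few. Another gene's TSS lay within 500 bp of 21 of the 35 summits (60%, against 55.1%), and the member's own TSS was the nearest for 27 (77.1%, against 74.2%). More than 1 promoter summit was found in 7 members (20%, against 17.1%): ph-p, Kdm2, Su(z)2, jing, Sfmbt, ash2 and dom.

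**Figure D4:**
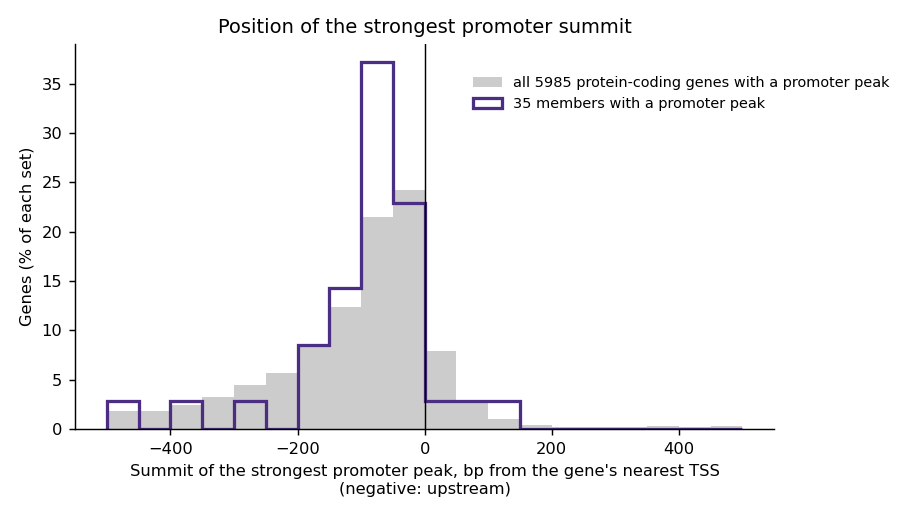
Distance in bp of the strongest promoter summit from the gene's nearest TSS (negative is upstream), as percent of the 35 members (line) and of all 5985 protein-coding genes with a promoter peak (grey). Of the members, 32 lie left of 0 and 32 within 200 bp, with a median distance of 74 bp, and the 3 beyond 200 bp are upstream.

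The DRE, the Ohler 1 core and GAACCAG or GAACTAG were each found at a minority of the members. Both strands were searched for the exact letters within 100 bp of the strongest promoter summit, and the comparison is with all 5510 thresholded promoter summits. Each member gave only its strongest summit, while the comparison set also holds weaker summits of the same gene. How far this moves the shares was not tested. TATCGATA was found at 4 of 35 members (11.4%, against 11.4%): Scm, Sfmbt, trr and Iswi, which ranked between 3170 and 3311. GGTCACAC was at 5 (14.3%, against 9.6%): esc, trx, ash1, dom and Mi-2. GAACCAG or GAACTAG was at trx and Mi-2 (5.71%, against 6.55%). At least 1 of these 3 was at 9 members (25.7%, against 25.5%), and at none of the 6 members ranked within the first 1000. No share by rank was taken over all promoter summits, so these remarks on rank have no comparison, and 6 members are few.

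Of the shorter motifs, CGATA, which is also part of TATCGATA, was at 20 members (57.1%, against 46%), among them Ino80, Pc and Acf. GCCAT, the core bound by Pho, was at 12 (34.3%, against 28.9%), and GAGAG, the GAGA element bound by Trl, at 5 (14.3%, against 22.5%). TATAAA was at 9 (25.7%, against 28.7%), CAGCTG at 5 (14.3%, against 16.2%) and CAGGTAG, bound by Zelda, at 1, Psc (2.86%, against 0.726%). With other windows some shares changed sides. Within 50 bp GCCAT was at 5 members (14.3%, against 16.6% of all promoter summits) and within 200 bp at 19 (54.3%, against 49.3%). TATAAA was at 2 (5.71%, against 14%) and at 19 (54.3%, against 49.3%), and TATCGATA at 3 (8.57%, against 7.4%) and at 7 (20%, against 14.6%). GGTCACAC was at 4 (11.4%, against 5.7%) and at 5 (14.3%, against 12.8%), GAGAG at 3 (8.57%, against 11.4%) and at 10 (28.6%, against 39.6%), and CAGCTG at 3 (8.57%, against 8.51%) and at 8 (22.9%, against 26.9%). CAGGTAG stayed at 1. GAACCAG or GAACTAG stayed at 2 (5.71%, against 4.5% within 50 bp and 9.24% within 200 bp). CGATA was at 15 (42.9%, against 30.7%) and at 24 (68.6%, against 60.7%). A match is a description of the letters and shows no bound factor.

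Several members were also bound inside the gene. Outside 500 bp of their own start sites, 10 members held 31 thresholded summits (23.8% of the members, against 11.1% of all genes), 24 of them in introns. The members are long, with a median gene length of 7574 bp against 2166 bp, and among genes over 10000 bp the counts were 9 of 14 members (64.3%) and 48.5% of all such genes. Support in all 3 replicates was found for 18 of the 31 (58.1%), against 52.5% of the 3198 thresholded summits outside any promoter, and the median signals were 243.4 and 189.2. Of the 31, 5 lay within 500 bp of another gene's TSS.

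The strongest were in osa, which had no promoter peak. Its summit 13955 bp from its TSS, in an exon of a non-coding transcript, had a signal of 1270 and ranked 442 in the thresholded list, above the promoter peak of every member but Ino80, ph-p and Kdm2. A second, 17771 bp from the TSS in an intron and close to the TSS of lncRNA:CR46036, had 992.2. In trx, an intronic summit 3015 bp downstream of the TSS had 967.7, against 333.4 at the promoter. Mi-2 had 694.2 at 6941 bp, against 364.7, and Psc 368.8 at 5097 bp, against 171.3. These 3 were the only ones of the 9 members with both kinds of peak whose internal summit was the stronger (33.3%, against 40.8% of 1076 genes). Kdm2 carried 3 intronic summits of 666.3, 576.1 and 427.7 behind its 3 promoter summits, and ph-p had 523.5 and 258 behind its own.

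**Figure D5:**
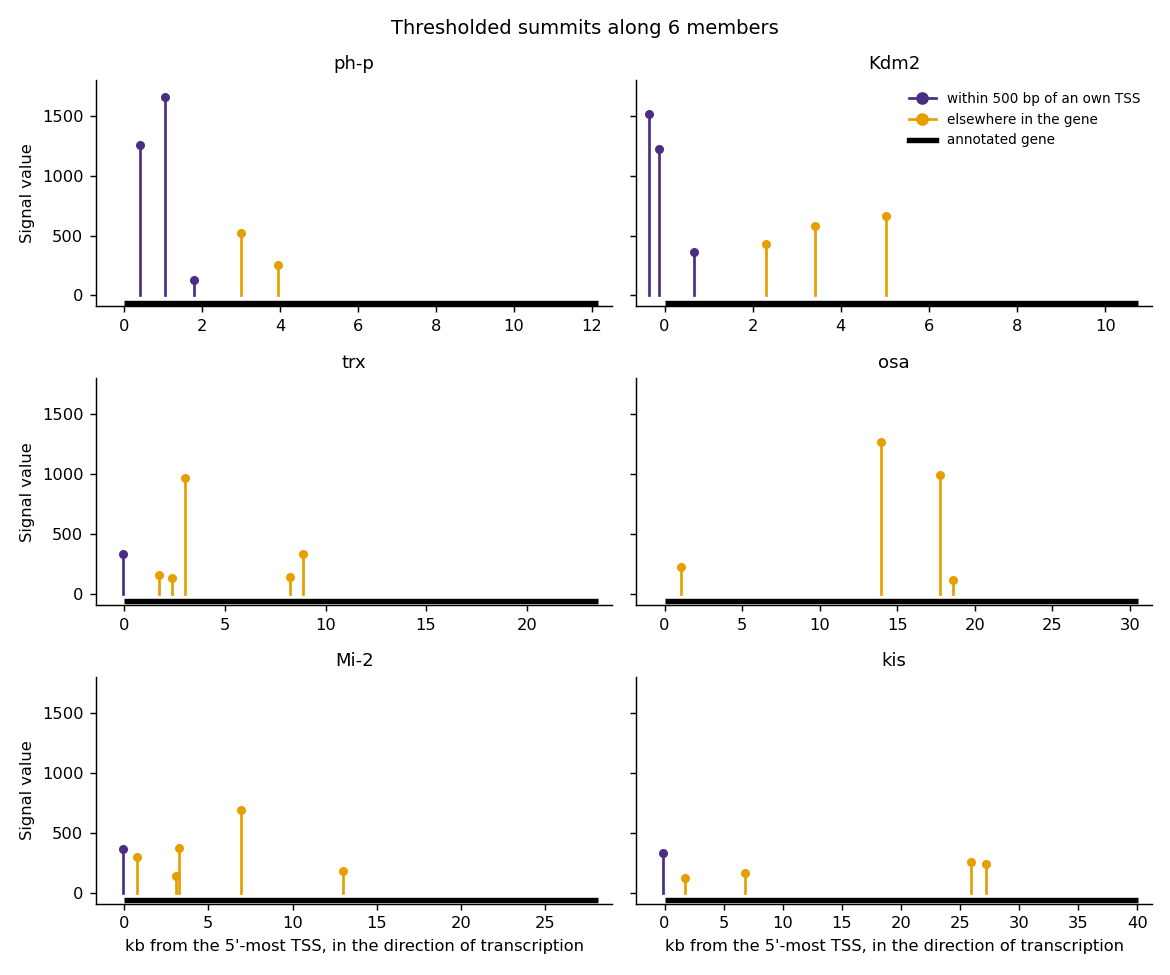
Signal value of thresholded summits along 6 members against kb from the outermost TSS in the direction of transcription; purple stems lie within 500 bp of an own TSS, orange ones elsewhere in the gene, and the black bar is the annotated gene. The tallest stems of osa (1270) and trx (967.7) stand beyond 500 bp of an own TSS. Those of ph-p (1652) and Kdm2 (1510) lie within that limit, 465 and 356 bp from a TSS.

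Among the 62 other chromatin genes, 10 of 10 PRC1 partners and factors of Polycomb response elements had a promoter peak, 8 of 11 further COMPASS subunits, 6 of 6 of SWI/SNF, 3 of 4 of ISWI, 12 of 15 of INO80, SWR1 and Tip60, 4 of 6 of NuRD and CHD and 9 of 10 others. The highest exceeded every member. Wdr82, a subunit of the Set1 complex, had 32404 with ranks of 48, 38 and 39, and Arp5, a subunit of the INO80 complex, had 10766 with ranks of 148, 151 and 150. The bromodomain gene fs(1)h (3854), Gas41 (1457) and the COMPASS gene Lpt (1028) followed. Wdr82 stood alone among these 5 in having no other gene's TSS within 500 bp of the summit.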

How the data were processed

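Per the deposited description files, the authors made a narrowPeak list of 30000 entries from each of 3 replicate alignments against 1 control alignment, a pooled list from all 3, and a thresholded list of 8708 peaks from these with IDR, a comparison of ranks between replicates. The 8708 peaks are the top of the pooled list, and 5593 had support in all 3 replicates. The height is the signal value deposited by the authors. The sources used here do not give its scale, the aligner, the peak caller or the threshold of IDR. The lists hold no counts, so depth is unknown, and precision rests on the 3 replicate lists. The dm3 lists were not used.

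Summits were assigned to TSSs of Ensembl 115 (FlyBase 6.54) with Python 3.11 and drawn with matplotlib 3.10.9; sequences are from the Release 6 genome. Coordinates are dm6, counted from 1. The assignment was tested on simulated data. No statistical test was made. Members, gene lists and motifs were chosen with earlier results of these data known. Every member is accounted for, and up to 3 of highest signal per complex have their ranks in full; of the other chromatin genes the 5 highest are named. Alternatives covered the promoter window, assignment, peak strength, replicate support and lists. Counting only genes with no neighbouring TSS within 1000 bp was chosen after seeing the data.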

Additional observations from a re-analysis of the deposited data

How the results depend on the processing

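The count of 35 members stayed between 27 and 39 in the settings that kept all 42, and 10 of 14 had a peak with no neighbouring TSS (27.2% of all such genes). It was 34 with a window of 250 bp and 36 with 1000 bp, and calypso was the gain. Supported by both other replicates were 29 to 32 members, 44 to 46 other chromatin genes and 35.8% to 37.4% of all genes. The other chromatin genes fell to 32 in the stronger 50% of peaks, where PRC2 had 4, Ash1 0, and INO80 and SWR1 1. With no neighbouring TSS, 16 of 18 of them had a peak, and PRC2 had 1 of 1, PhoRC 0 of 1, COMPASS 2 of 3, SWI/SNF 1 of 2 and CHD 1 of 1. PR-DUB had 1 of 2 with 1000 bp, with interval overlap, in the pooled list and in replicate 2. Ash1 had 0 with support in all 3 replicates and in replicate 2 alone, and 0 to 1 with 1 replicate left out. INO80 and SWR1 had 1 with 250 bp, by nearest TSS and with support in all 3, and 1 to 2 with 1 replicate left out. Support in all 3 was 25, 31 and 32 members with 50 bp, 200 bp and all entries. In these small groups 1 gene moves the share widely. Depth is unknown, so weak and absent binding cannot be told apart near rank 8708.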
